A study of Mus musculus with 21 samples.

Results

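Disruption of *Cbfa2t3* was compared with a control in lymphoid progenitors (LPs), and the comparison covered the genes whose mean over the 3 sgCbfa2t3 and the 3 sgControl libraries was above 1 CPM (reads of a gene in 1000000 reads of its library). These were 11642 of the 55421 genes in the QuantSeq table, and 16278 had a read in at least 1 of the 6 libraries. The cells were an Ebf1-deficient LP line of strain C57BL6/J, grown on OP9 stromal cells without Notch stimulation. All groups therefore carried the deficiency of *Ebf1*, a transcription factor needed for B-lineage commitment, and all carried Cas9-GFP. A retroviral pool of 2 sgRNAs per targeted gene, with a human NGFR marker, was added, and GFP+ hNGFR+ cells were sorted 5 days later. The sgControl cells received sgRNAs against luciferase, which mouse cells do not carry. The groups sgCbfa2t2 and sgZbtb1, with 3 libraries each, served for direct contrasts with sgCbfa2t3, and 3 sgLmo2 libraries entered the fit only. Each group was a sorted pool of sgRNA-carrying cells from the same line and not a clone. The 3 replicates of a group were separate samples of that line, so the p-values measure the spread between these samples, which does not include a spread between animals.

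Cbfa2t3, also called ETO2 or MTG16, is a corepressor of the ETO family that does not bind DNA by itself. It is recruited by complexes of Lmo2, Ldb1, Lyl1 or Tal1 with E proteins, and by GATA and Runx factors, and it brings in NCoR corepressors and histone deacetylases. In blood formation it is known for holding back differentiation genes in stem cells, in erythroid and in lymphoid progenitors. The question behind the comparison was which genes depend on Cbfa2t3 in LPs that can still enter the T-lineage, before Notch signals are given.

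The 6 libraries held 1705416 to 1865097 reads, so that 3 reads, the smallest number taken as a level, were worth 1.61 to 1.76 CPM. The values of replicates differed by more than sampling noise (chi-square per degree of freedom 2.22 to 3.01 between libraries of the same group), so each library was counted as a sample of its own. All 6 defining progenitor markers (*Flt3*, *Kit*, *Il7r*, *Cd34*, *Lmo2*, *Ptprc*) were above the minimum, and their sum was 1077 to 1282 CPM in the sgControl libraries and 1030.0 to 1202 CPM in the libraries labelled sgCbfa2t3. Of the 18 genes of the OP9 stroma list, 9 were at 0 in all 6 libraries and 2 were abundant enough to be tested, and the list summed to 10.996 to 15.7 CPM in the sgControl libraries and 7.75 to 12.9 CPM in the libraries labelled sgCbfa2t3. Markers of mature T, B, NK and myeloid cells each summed to less than 30 CPM. Of the erythroid markers, Hbb-bs was listed at 0 in all 6 libraries and Klf1 was at most at 2.85 CPM. The beta globin *Hbb-bt*, which is not one of these markers, was at 114 to 277 CPM.

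The targeted gene itself was higher, not lower, in the libraries labelled sgCbfa2t3. *Cbfa2t3* (ENSMUSG00000006362, chr8:122625141-122699109, minus strand in mm10) was at 209.7, 189 and 172 CPM in the sgControl libraries and at 340.5, 344 and 364 CPM in the libraries labelled sgCbfa2t3 (log2 fold change 0.88, SE 0.11, adjusted p = 2e-07, limma). The groups did not overlap. The other 9 libraries, labelled sgLmo2, sgZbtb1 and sgCbfa2t2, lay between 135 and 266 CPM, so the 3 libraries with the label were also the 3 highest of the 15. QuantSeq reads the 3′ end of a transcript, and small insertions or deletions at an sgRNA target upstream of it are not visible in these values. The mRNA level is therefore no check of the loss of the protein, which the study followed by immunoblotting, and every direction given here is drawn from libraries named by their label. *Cbfa2t2*, the paralog (MTGR1), was at 11.03, 12.2 and 12.3 CPM in sgControl and 20.4, 10.8 and 18.3 CPM in sgCbfa2t3 libraries, which overlapped (adjusted p = 0.72, limma). The contrast groups also had their own target above sgControl: *Cbfa2t2* was at 25.5, 23.9 and 16.4 CPM in the libraries labelled sgCbfa2t2, and *Zbtb1* was at 94.4, 113 and 109 CPM in those labelled sgZbtb1 and 62.7, 66.6 and 55.7 CPM in sgControl, with no overlap in either gene.

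Across the transcriptome, few genes passed the threshold and most of these fell. With limma on log2(CPM + 1), 62 of the 11642 genes (0.533%) had a Benjamini-Hochberg adjusted p under 0.05, which is what "called", "rose" and "fell" stand for here. Of these, 16 rose (0.137% of the genes tested) and 46 fell (0.395%). The median log2 fold change over all genes tested was -0.011, and among called genes the median size was 0.80 and the smallest 0.31. In 61 of the 62, the 3 sgCbfa2t3 libraries lay all on one side of the 3 sgControl libraries, against 15.7% of all genes tested (6.69% higher and 9.02% lower), and the exception was the noncoding RNA *Neat1*. The calls rest on these same libraries, so this separation adds no support of its own. Of the called genes, 52 of 62 were protein coding, as were 10166 of the 11642 genes tested, and 37 of these 52 fell. The spread set what could be called: the median SE was 0.55 for the 3475 genes with a mean up to 10 CPM, of which 4 were called, and 0.11 for the 2001 genes above 100 CPM, of which 30 were called. Leaving out 1 library at a time kept 16 of the 62 calls in all 6 such fits, while 46 lost the threshold in at least 1 fit and none changed direction. The count fell to 26 without sgControl replicate 2, to 26 without sgControl replicate 3, to 30 without sgCbfa2t3 replicate 1 and to 41 without sgCbfa2t3 replicate 2. With edgeR on the recovered reads, 54 of the 62 were called as well, and *Zfp94*, *Irf1*, *Kdm5a*, *Med13l*, *Senp6*, *Gm15657*, *Gm42819* and *Gm42798* were not. DESeq2 called 34 and gave no adjusted p for 23. The other 5 were not called by it, with adjusted p-values of 0.088 for *Hbb-bt*, 0.097 for *Jchain*, 0.1 for *5830411N06Rik*, 0.19 for *Xist* and 0.3 for *Kcnq1ot1*.

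**Figure D1:**
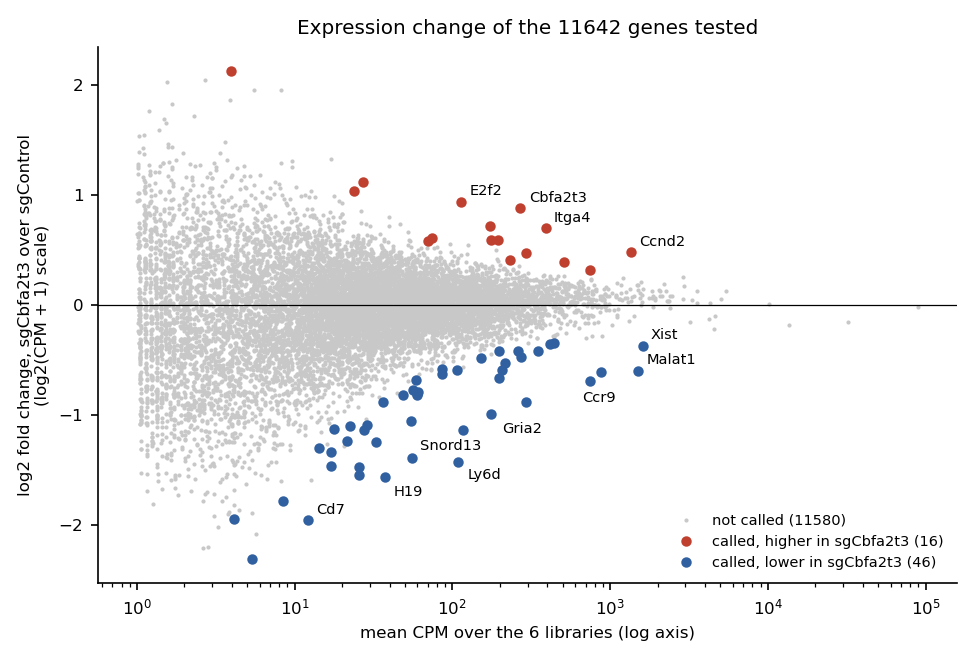
Log2 fold change of each of the 11642 genes, sgCbfa2t3 over sgControl on the log2(CPM + 1) scale, against the mean CPM over the 6 libraries on a log axis, 1 point per gene. The 46 called genes that were lower (blue) outnumber the 16 that were higher (red), and at low means the grey points of genes that were not called spread as far as the called ones.

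Of the 16 genes that kept the call without any 1 library, 6 rose and 10 fell. Besides *Cbfa2t3*, the genes that rose included 2 known drivers of entry into S phase. *E2f2*, a transcription factor of the cell cycle (chr4:136172394-136196057, plus strand), was at 76.1, 74.1 and 83.3 CPM in the sgControl libraries and at 153, 143 and 153 CPM in the libraries labelled sgCbfa2t3 (log2 fold change 0.94, SE 0.15, adjusted p = 7e-05, limma). The lowest sgCbfa2t3 library was far above the highest sgControl library. *Ccnd2*, which encodes cyclin D2, was the most abundant of the genes that rose (chr6:127125162-127152193, minus strand). It was at 1123, 1076 and 1191 CPM in sgControl and 1445, 1517 and 1770.4 CPM in sgCbfa2t3 libraries (log2 fold change 0.48, SE 0.08, adjusted p = 0.00015). The groups did not overlap. *Itga4*, the integrin alpha 4 chain that anchors progenitors to stroma (chr2:79255426-79333123, plus strand), was at 344, 286 and 265 CPM and 506, 474 and 468 CPM in the same order (log2 fold change 0.70, SE 0.10, adjusted p = 2.7e-06). *Arid3a*, a DNA-binding factor of lymphoid cells (chr10:79927043-79955018, plus strand), was at 149, 135 and 137 CPM in sgControl and 197, 210.1 and 229.9 CPM in sgCbfa2t3 libraries (log2 fold change 0.59, SE 0.12, adjusted p = 0.0024). *Reep5*, a protein that shapes the endoplasmic reticulum (chr18:34344885-34374070, minus strand), was at 142, 151 and 174 CPM and 254, 222 and 226 CPM (log2 fold change 0.59, SE 0.10, adjusted p = 0.00047). In each of these genes all 3 sgCbfa2t3 libraries were above all 3 sgControl libraries.

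The fall with the lowest adjusted p was that of *Ly6d*, a surface protein that marks lymphoid progenitors primed for the B-lineage (chr15:74762056-74763620, minus strand). It was at 134, 155 and 186 CPM in the sgControl libraries and at 55.2, 67.4 and 50.96 CPM in the libraries labelled sgCbfa2t3 (log2 fold change -1.43, SE 0.15, adjusted p = 9.2e-10, limma). Every sgCbfa2t3 library was below every sgControl library by a wide gap. *Ccr9*, the chemokine receptor that guides progenitors to the thymus (chr9:123678439-123784330, plus strand), was at 855, 909.9 and 1003 CPM in sgControl and 497, 574 and 641 CPM in sgCbfa2t3 libraries (log2 fold change -0.70, SE 0.10, adjusted p = 6.4e-06). Its locus overlaps that of *Lztfl1* on the opposite strand, which was at 213, 259 and 271 and 154, 152 and 183 CPM (log2 -0.60 ± 0.12 SE, not called without sgControl replicate 3). The strand setting of the counting was not given in the sources used here, so reads of the 2 genes may not be told apart. *Cdh1*, E-cadherin, an adhesion protein (chr8:106603351-106670246, plus strand), was at 38.9, 38.8 and 36.9 CPM in sgControl and 13.9, 7.42 and 18.3 CPM in sgCbfa2t3 libraries (log2 fold change -1.54, SE 0.28, adjusted p = 0.00085). The 3 sgControl libraries lay close together, while the sgCbfa2t3 libraries spread more widely beneath them.

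*H19*, an imprinted noncoding RNA (chr7:142575529-142578143, minus strand), fell from 41.2, 72.3 and 54.5 CPM in sgControl to 15.5, 13.1 and 27.1 CPM in sgCbfa2t3 libraries (log2 fold change -1.57, SE 0.25, adjusted p = 8.1e-05, limma). *Rel*, a subunit of NF-kB (chr11:23736847-23770970, minus strand), was at 40.1, 39.9 and 38.1 CPM and 16.6, 18.3 and 18.8 CPM in the same order (log2 fold change -1.10, SE 0.22, adjusted p = 0.0046). *Gria2*, a glutamate receptor subunit (chr3:80681450-80802835, minus strand), was at 211, 238 and 256 CPM and 114, 98.2 and 143 CPM (log2 fold change -0.997, SE 0.13, adjusted p = 1.5e-06). These 3 genes had no overlap between the groups. *S100a4*, a calcium-binding protein of motile cells (chr3:90603771-90606045, plus strand), was at 222, 251 and 252 CPM in sgControl and 144, 163 and 149.6 CPM in sgCbfa2t3 libraries (log2 fold change -0.66, SE 0.12, adjusted p = 0.00034). The gene *5830411N06Rik* (chr7:140247284-140300736, plus strand) was at 222, 109 and 158 CPM and 79.9, 58.2 and 75.3 CPM (log2 fold change -1.14, SE 0.20, adjusted p = 0.00023). It kept the call without any 1 library but not with DESeq2 (adjusted p = 0.1). Its sgControl libraries spread over a wider range than those of the other genes, and the lowest was still above the highest sgCbfa2t3 library. The remaining 2 of the 10, *Snord13* and *Malat1*, are noncoding and are described with the other noncoding RNAs.

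**Figure D2:**
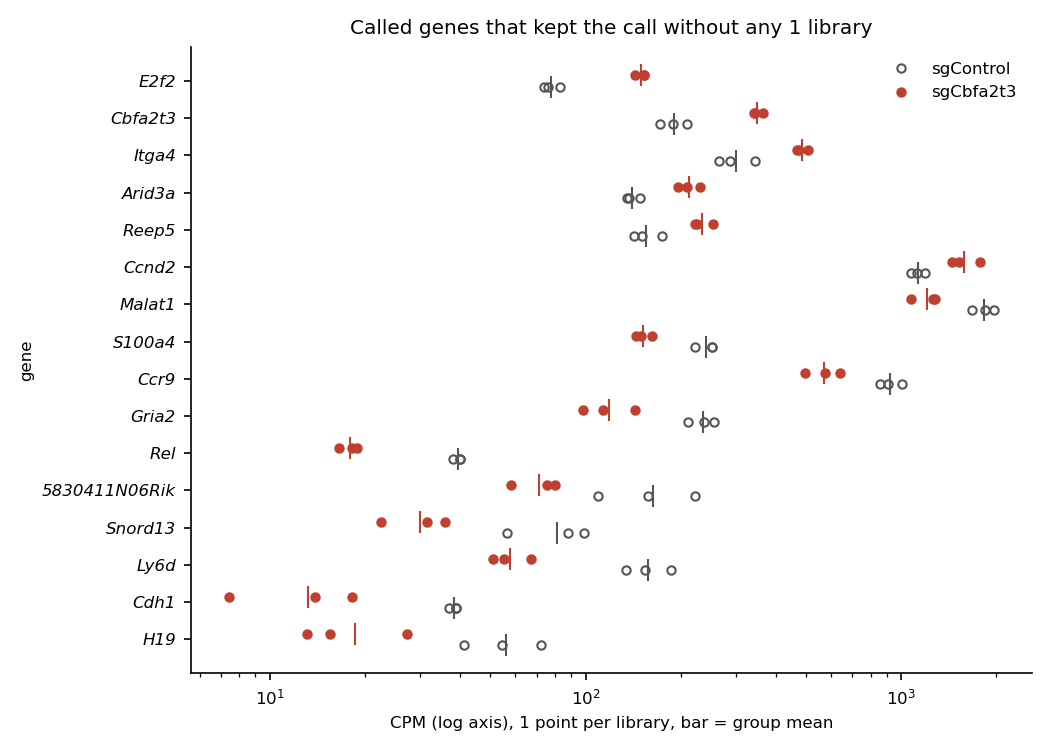
CPM on a log axis of the 16 called genes that kept an adjusted p under 0.05 in all 6 fits that left out 1 library, with 1 point per library (open grey, sgControl, and red, sgCbfa2t3) and a vertical bar at each group mean. In all 16 genes the 3 points of one group lie on one side of the 3 points of the other, from *H19* with the largest fall to *E2f2* with the largest rise.

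The other 10 genes that rose lost the threshold without at least 1 library. *H2afz*, the histone variant H2A.Z, rose by 0.39 on the log2 scale and *Hmgn5*, a nucleosome-binding protein, by 0.41. *Pa2g4*, a proliferation-associated RNA-binding protein, had the smallest change of all called genes, 0.31 ± 0.08 SE. *Snap47*, a SNARE protein of membrane fusion, rose by 1.12 ± 0.25 SE, from 19.7, 21.4 and 10.6 CPM to 37.5, 34.8 and 38.8 CPM. *Atg7*, the activating enzyme of autophagy, rose by 1.04 ± 0.25 SE, from 20.9, 10.997 and 14.7 CPM to 30.02, 33.7 and 32.1 CPM. *Selenot*, a selenoprotein of the endoplasmic reticulum, rose by 0.60 and *Mydgf*, a secreted growth factor, by 0.58, the latter called in none of the 6 fits without 1 library. *Hbb-bt*, an adult beta globin, was at 148, 128 and 114 CPM and 277, 191 and 184 CPM, and its reads may be shared with the near-identical copy Hbb-bs. Its mean in sgLmo2 was 86.4 CPM, below the 130 CPM of sgControl. *Gm15657*, a noncoding RNA, had 2, 0 and 3 reads in sgControl and 16, 12 and 10 reads in sgCbfa2t3 libraries, so that its sgControl level was at or under the 3-read floor.

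The 36 other genes that fell lost the threshold without at least 1 library. *Txk*, a Tec-family kinase of T cells, was at 44.7, 48.6 and 44.6 CPM in sgControl and 12.3, 25.7 and 20.5 CPM in sgCbfa2t3 libraries (log2 -1.25 ± 0.28 SE). *Prkch*, protein kinase C eta, was at 70.8, 79.9 and 79.2 CPM and 41.3, 45.1 and 42.7 CPM (log2 -0.82 ± 0.17 SE). *Pik3cd*, the catalytic delta subunit of PI3 kinase, was at 239.8, 278 and 249 CPM and 183, 182 and 165 CPM (log2 -0.53 ± 0.10 SE). The last 2 lost the call only without sgControl replicate 2. The phosphatase *Ptpn1* fell by 0.42 on the log2 scale and the kinase *Stk17b* by 0.48. *Trio*, a guanine nucleotide exchange factor, was at 31.4, 30.7 and 29.3 CPM and 8.04, 13.7 and 16.6 CPM (log2 -1.24 ± 0.30 SE). *Itsn1*, a scaffold of endocytosis, fell by 0.63 and *Gsn*, gelsolin, which severs actin filaments, by 0.78.

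*Jchain*, the joining chain of polymeric immunoglobulins and a gene of lymphoid progenitors, was among the most abundant genes called. It was at 853, 1159 and 1195 CPM in sgControl and 606, 760.0 and 714 CPM in sgCbfa2t3 libraries (log2 fold change -0.61, SE 0.12, adjusted p = 0.0012, limma), and it lost the call without sgControl replicate 3. *Hoxa3*, a homeobox factor, was at 29.04, 33.6 and 29.9 CPM and 13.4, 15.4 and 12.7 CPM (log2 -1.10 ± 0.26 SE), and its annotated span overlaps *Hoxa4*, *Hoxa5* and *Hoxa6* on the same strand. *Ptgds*, prostaglandin D synthase, was at 27.9, 19.1 and 29.3 CPM and 12.9, 7.42 and 6.09 CPM (log2 -1.47 ± 0.33 SE). Both genes were lower in every sgCbfa2t3 library and lost the call without some libraries. Other genes that fell had log2 fold changes of -1.31 ± 0.32 SE for *Abcb4*, a phospholipid exporter, -1.13 ± 0.28 SE for *Slc30a4*, a zinc transporter, and -1.34 ± 0.33 SE for *Vps50*, a protein of endosome recycling. *Cpne2*, a copine that binds membranes, was at 41.2, 38.2 and 35.2 CPM and 17.2, 16.6 and 16.6 CPM (log2 -1.14 ± 0.27 SE), and *Pdia5*, a disulfide isomerase, at 42.97, 40.5 and 58.6 CPM and 25.2, 23.98 and 25.5 CPM (log2 -0.88 ± 0.22 SE). Although their groups did not overlap, *Cpne2* and *Pdia5* were called in none of the 6 fits without 1 library. *Zfp94*, a zinc finger gene, was at 9.87, 6.37 and 5.28 CPM and 0.536, 1.14 and 1.66 CPM, near the 3-read floor in the second group. Another 8 coding genes that fell were *S100a6*, *Fndc3a*, *Lrba*, *Clk1*, *Xrn1*, *Pnisr*, *Med13l* and *Senp6*, by 0.34 to 0.82 on the log2 scale.

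Among T-lineage genes, those that were called fell. Of the 29 genes of the list, 18 were abundant enough to be tested, 3 fell (*Cd7*, *Ccr9* and *Thy1*), none rose and 15 did not pass, against the 0.533% called of all genes tested. The log2 fold change was below 0 in 16 of the 18, with a median of -0.38, while 51.5% of all genes tested were below 0. *Cd7*, a surface receptor of early T and NK cells, was at 9.87, 34.7 and 15.8 CPM in sgControl and 3.75, 6.28 and 2.21 CPM in sgCbfa2t3 libraries (log2 fold change -1.96, SE 0.45, adjusted p = 0.021, limma), and it lost the call without sgControl replicate 2 or 3 and without sgCbfa2t3 replicate 1 or 3. *Thy1*, the classical T-cell surface marker, was at 313, 332 and 299.6 CPM and 207, 251 and 222 CPM (log2 fold change -0.48, SE 0.11, adjusted p = 0.015), and lost the call without sgControl replicate 2 or sgCbfa2t3 replicate 1. In both genes the groups did not overlap. *Cd2*, an adhesion receptor of T cells, was at 8.71, 10.4 and 22.3 CPM and 3.22, 6.28 and 4.99 CPM (adjusted p = 0.22). *Bcl11b*, which fixes T-cell commitment, was at 24.4, 20.3 and 18.8 CPM and 15.5, 5.71 and 13.3 CPM (adjusted p = 0.33). *Gata3*, which starts the T-cell programme, was at 38.3, 31.8 and 31.7 CPM and 27.9, 27.98 and 32.7 CPM (adjusted p = 0.82). *Tcf7*, the gene of TCF1 that Notch switches on first, had 1, 9 and 4 reads in sgControl and 1, 1 and 4 reads in sgCbfa2t3 libraries, and a difference was not detectable at this depth (exact permutation p = 0.2, two-sided, when 3 libraries against 3 cannot go under 0.1). The members were chosen with earlier results of these data known, and their counts are a description.

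Among cell cycle genes, those that were called rose. Of 24 listed genes, 23 were tested, *E2f2* and *Ccnd2* rose, none fell, and 21 did not pass, against 0.533% called and 0.137% called higher among all genes tested. The log2 fold change was above 0 in 21 of the 23, with a median of 0.23, while 48.5% of all genes tested were above 0. The list summed to 7637 to 7993 CPM in the sgControl libraries and 8745 to 9050.3 CPM in the libraries labelled sgCbfa2t3, so that every sgCbfa2t3 library was above every sgControl library. *Cdkn2c*, the inhibitor p18, was at 13.4, 16.8 and 11.1 CPM and 19.8, 20.6 and 31.02 CPM (adjusted p = 0.33), and *Ccnb1*, cyclin B1, at 123, 123 and 134 CPM and 157, 154 and 162 CPM (adjusted p = 0.34). *Cdkn1b*, the inhibitor p27, was the lowest of the list at -0.47 ± 0.19 SE and did not pass.

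**Figure D3:**
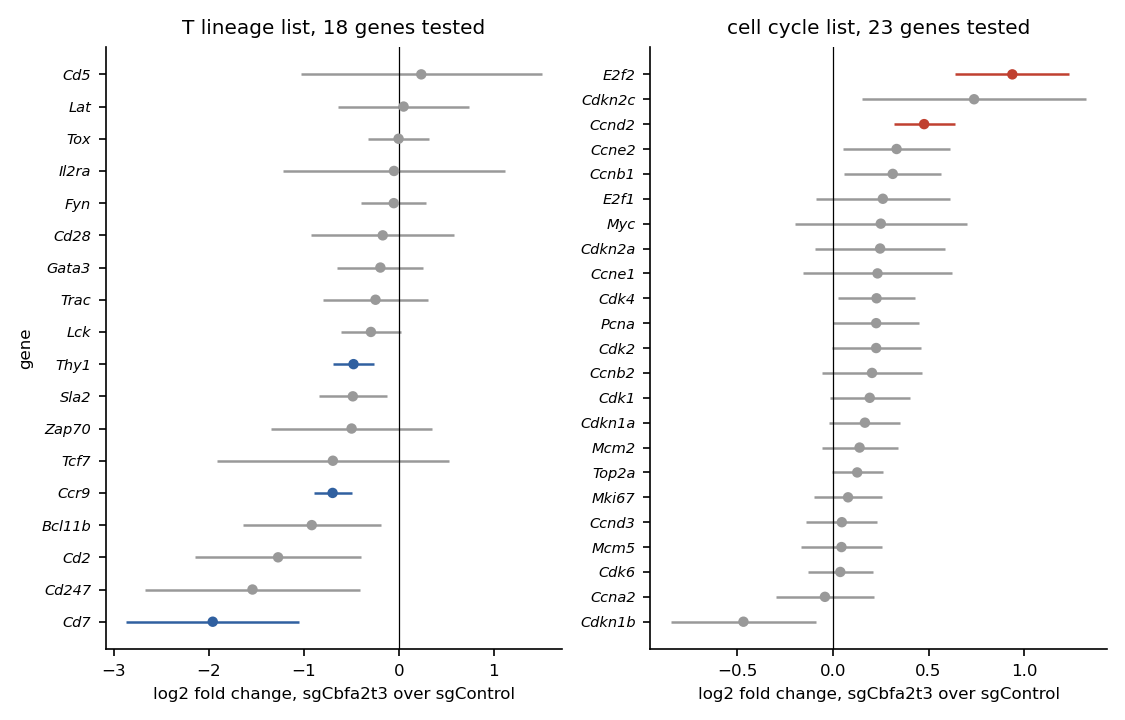
Log2 fold change, sgCbfa2t3 over sgControl on the log2(CPM + 1) scale, of the tested members of the T-lineage list (left, 18 genes) and the cell cycle list (right, 23 genes), with points for the estimate and bars for its 95% confidence interval. The called genes *Cd7*, *Ccr9* and *Thy1* (blue) lie left of 0 and *E2f2* and *Ccnd2* (red) right of it, and most grey points of genes that were not called lie on the same side as the called members of their list.

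Apart from *Cbfa2t3* itself, no gene of the corepressor and its complexes passed, where 0.533% of all genes tested were called. For lists of this size, here and in the lists below, a count of 0 is near that share. In the list of the ETO family with its corepressor partners, 18 of 20 genes were tested, *Cbfa2t3* rose (0.137% of all genes tested did) and 17 did not pass, with a median of 0.063. *Gps2*, a subunit of the NCoR complex, was at 66.2, 82.8 and 59.2 CPM in sgControl and 84.7, 82.8 and 84.8 CPM in sgCbfa2t3 libraries (adjusted p = 0.51, limma) and *Hdac1* had an adjusted p of 0.54. None of the 16 tested genes of the *Lmo2* complex passed (median -0.0019). *Lyl1*, the bHLH factor of the complex, was at 156, 167 and 155 CPM and 196, 188 and 216 CPM (log2 0.32 ± 0.11 SE, adjusted p = 0.2), with no overlap between the groups. *Lmo2*, the bridging factor, was at 23.2, 16.2 and 15.8 CPM and 16.1, 10.3 and 14.4 CPM (adjusted p = 0.69). *Zbtb1*, a zinc finger partner of *Lmo2*, was at 62.7, 66.6 and 55.7 CPM and 67.6, 71.4 and 70.4 CPM (adjusted p = 0.74).

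Among the 5 tested genes of the E protein and Id list, none passed in this fit, against 0.533% called of all genes tested. *Id2*, which keeps E proteins from DNA, was at 134, 183 and 153 CPM in sgControl and 206, 257 and 199 CPM in sgCbfa2t3 libraries (log2 fold change 0.49, SE 0.13, adjusted p = 0.061, limma), with no overlap between the groups. It passed with edgeR, with DESeq2, with median-of-ratios scaling and with the 6 libraries alone, so its place beside the threshold depended on the processing. *Tcf4*, an E protein, was at 190.5, 212 and 209 CPM and 153, 156 and 165 CPM (adjusted p = 0.14), again without overlap. *Tcf3*, which encodes E2A, had an adjusted p of 0.59 and *Tcf12*, which encodes HEB, one of 0.54.

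Of 29 listed genes of the Notch pathway, 25 were tested and 1 passed (0.533% of all genes tested), *Kdm5a*, a histone H3K4 demethylase that acts with *Rbpj*. *Kdm5a* was at 196, 237 and 252 CPM in sgControl and 149, 190.1 and 171 CPM in sgCbfa2t3 libraries (log2 fold change -0.42, SE 0.11, adjusted p = 0.049, limma), and lost the call in 4 of the 6 fits without 1 library. The median of the list was -0.0034. *Rbpj*, the DNA-binding factor of the pathway, was at 56.9, 55.6 and 51.6 CPM and 45.04, 45.7 and 31.6 CPM (adjusted p = 0.37). The receptor *Notch1* was at 203, 129 and 136 CPM and 206, 176 and 138 CPM (adjusted p = 0.73) and *Notch2* at 54.01, 37.6 and 48.1 CPM and 40.2, 43.97 and 32.7 CPM (adjusted p = 0.73), and both overlapped. *Hes1*, a direct Notch target, had 0, 0 and 2 reads in the sgControl libraries and 10, 14 and 3 reads in the sgCbfa2t3 libraries (adjusted p = 0.13). Its sgControl level was under the 3-read floor in each library, and no fold is given. *Hes1* had 0 reads in all 3 sgZbtb1 libraries (adjusted p = 0.024 for the direct contrast). *Fbxw7*, the ligase that degrades Notch, had an adjusted p of 0.37.

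The B-lineage list held *Ly6d* and no other called gene among its 12 tested members, against 0.533% called and 0.395% called lower among all genes tested (median 0.071, with 6 members above 0 and 6 below). Reads of *Ebf1* were present although the line is Ebf1-deficient, at 338, 305 and 366 CPM in sgControl and 253, 251 and 289 CPM in sgCbfa2t3 libraries (log2 -0.35 ± 0.10 SE, adjusted p = 0.098 with limma). The groups did not overlap, and the adjusted p with DESeq2 was 0.049996, just under the threshold. *Dntt*, terminal transferase, was at 71.4, 85.1 and 77.99 CPM and 131, 95.9 and 119.7 CPM (adjusted p = 0.11), opposite in direction to *Ly6d*. *Pax5*, the factor of B-cell commitment, was at 6.97, 5.21 and 8.21 CPM and 1.07, 2.85 and 2.21 CPM (adjusted p = 0.28).

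None of the 17 tested genes of stem and multipotent progenitors passed (median -0.12), against 0.533% called of all genes tested. *Bcl11a*, needed for lymphoid specification, was at 38.9, 57.3 and 38.1 CPM in sgControl and 30.02, 28.5 and 23.3 CPM in sgCbfa2t3 libraries (log2 -0.68 ± 0.24 SE, adjusted p = 0.24, limma), with no overlap. *Cd34* had an adjusted p of 0.36, *Ly6a*, which encodes Sca-1, one of 0.39 and *Satb1* one of 0.46. None of the 13 tested myeloid genes (median -0.026; lowest adjusted p 0.47, *Csf2ra*) and none of the 8 tested innate lymphoid and NK genes passed. The latter had a median of -0.32, with *Nkg7* at 6.39, 6.37 and 9.97 CPM and 3.75, 2.85 and 2.77 CPM (adjusted p = 0.42). In the erythroid list, with 5 of 23 genes tested, *Hbb-bt* rose, against 0.137% of all genes tested, and *Hemgn*, a nuclear factor of blood progenitors, was at 20.3, 23.2 and 31.1 CPM and 10.7, 17.7 and 8.86 CPM (adjusted p = 0.14). Of the OP9 stroma list, the 2 tested genes, *Pdgfrb* and *Timp3*, did not pass.

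In the interferon and antigen presentation list, 1 of 17 tested genes passed, against 0.533% of all genes tested. *Irf1*, an interferon-induced factor, was at 70.3, 68.9 and 76.8 CPM in sgControl and 39.1, 58.8 and 37.7 CPM in sgCbfa2t3 libraries (log2 fold change -0.69, SE 0.17, adjusted p = 0.028, limma), and lost the call in 5 of the 6 fits without 1 library. The list had a median of -0.21, with *H2-K1* (adjusted p = 0.33) and *H2-D1* (adjusted p = 0.43) lower and *Psmb8* (adjusted p = 0.38) higher in mean without passing. None passed among 22 tested genes of cytokine receptors and JAK-STAT signalling (median -0.075). There *Stat5a* was at 27.3, 21.99 and 21.7 CPM and 15.01, 17.7 and 9.97 CPM (adjusted p = 0.33), *Stat3* had an adjusted p of 0.24 and *Il7r*, the IL-7 receptor chain, one of 0.51. None passed among 21 glycolysis genes (median -0.097), where *Gpi1* had the lowest adjusted p, 0.47. None passed among 18 genes of p53 targets and apoptosis (median -0.076). *Bcl2*, the survival factor, was at 706, 832 and 797 CPM and 552, 629 and 723 CPM (log2 -0.30 ± 0.09 SE, adjusted p = 0.11), the groups overlapped, and it passed without sgCbfa2t3 replicate 3, while *Cdkn1a*, the p53 target p21, had an adjusted p of 0.53.

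Some classes of noncoding and unproven transcripts had medians below 0, although few of their members passed. The 468 tested transcripts of the class TEC, which the annotation lists as unproven had a median log2 fold change of -0.47, and 357 of them were below 0. Of these, 3 fell and none rose (0.641% called, near the 0.533% of all genes tested). They summed to 2530.5, 2736 and 2943 CPM in sgControl and 1486, 1718 and 2188 CPM in sgCbfa2t3 libraries. The sums did not overlap, and the mean sum was 2198 CPM in sgLmo2, 1541 CPM in sgZbtb1 and 1664 CPM in sgCbfa2t2. The 41 snoRNAs tested had a median of -0.41 and the 610 lncRNAs one of -0.16, of which 5 fell and 1 rose (0.984% called), against 0.0025 for the 10166 protein-coding genes. The 215 processed pseudogenes tested had a median of -0.023 and none was called, and the library sums of the lncRNAs overlapped (97872 to 107610 CPM in sgControl and 94211 to 101960 CPM in sgCbfa2t3). The called TEC transcripts were *Gm42819* within *Notch2*, *Gm42798* within *Ppm1g* and *Gm38082* within *Cux1*, each on the strand of its host gene. *Gm42819* had 15, 14 and 18 reads in sgControl and 1, 0 and 8 reads in sgCbfa2t3 libraries, of which 2 were under the 3-read floor, and no fold is given. It was not called with edgeR (adjusted p = 0.15) and kept the call in 1 of the 6 fits without 1 library. *Gm42798* had 29, 21 and 19 reads and 2, 9 and 8 reads in the same order, was not called with edgeR (adjusted p = 0.073) and kept the call in 2 of the 6 fits. *Gm38082* had 52, 88 and 54 reads and 17, 18 and 37 reads (log2 -1.48 ± 0.35 SE) and kept the call in 2 of the 6 fits.

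Several nuclear RNAs were among the called genes. *Malat1*, an abundant RNA of nuclear speckles (chr19:5795690-5802672, minus strand), was at 1669, 1838 and 1961 CPM in sgControl and 1076, 1255 and 1281 CPM in sgCbfa2t3 libraries (log2 fold change -0.60, SE 0.10, adjusted p = 8.1e-05, limma). Its neighbour *Neat1*, the RNA of paraspeckles, was at 45.3, 86.2 and 91.5 CPM and 25.2, 30.3 and 49.3 CPM (log2 -1.06 ± 0.25 SE), and 1 library of each group crossed. *Xist*, which coats the inactive X chromosome, was at 1798, 1812 and 1825 CPM and 1276, 1367 and 1573 CPM (log2 -0.37 ± 0.09 SE), and *Kcnq1ot1*, an imprinted antisense RNA, at 344, 380.3 and 409 CPM and 145, 210.1 and 276 CPM (log2 -0.88 ± 0.18 SE). *Snord13*, a small nucleolar RNA (chr8:31149864-31149967, minus strand), was at 56.3, 98.97 and 87.95 CPM and 22.5, 31.4 and 36.01 CPM (log2 fold change -1.39, SE 0.23, adjusted p = 9e-05). *Malat1* and *Snord13* kept the call without any 1 library, and *Xist*, *Neat1* and *Kcnq1ot1* did not. In sgCbfa2t2 and sgZbtb1 libraries, which share the sgControl libraries in their own comparisons, *Malat1* was at 1172 ± 269 and 1156 ± 95.4 CPM and *Xist* at 1316 ± 233 and 1203 ± 46.02 CPM (SD, n = 3). The direct contrasts of sgCbfa2t3 with these groups did not pass for either RNA (adjusted p = 0.96 and 0.91 for *Malat1*, 0.93 and 0.31 for *Xist*, limma). Mitochondrial transcripts, with a median of -0.16 over 21 tested, summed to 67155 to 68908 CPM in the sgControl libraries and 60168 to 61989 CPM in the libraries labelled sgCbfa2t3. None of these 21 was called. The part of the makeup of the libraries in the lower levels of the nuclear and mitochondrial RNAs was not tested.

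Cbfa2t3 binding in Ebf1-deficient LPs without sgRNA was then set beside these changes. The ChIP-seq list held 6077 Cbfa2t3 peaks reproducible in 2 replicates, with a lowest HOMER peak score (normalized tag count) of 20.6 and a median of 33.2, and each peak was assigned to the gene with the nearest transcription start. Of the 62 called genes, 28 (45.2%) were the nearest gene of at least 1 peak, against 2422 of all 11642 genes tested (20.8%). It was 9 of the 16 genes that rose (56.2%) and 19 of the 46 that fell (41.3%). Abundant genes had a peak more often: the share was 15.3% of genes with a mean up to 10 CPM and 26.2% above 100 CPM, where 16 of 30 called genes had one. With peaks within 10 kb of the start only, 19 called genes (30.6%) and 12.7% of all genes tested had one. With a peak score of at least 30, these were 24 called genes (38.7%) and 12.9%. No test was run on these shares.

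**Figure D4:**
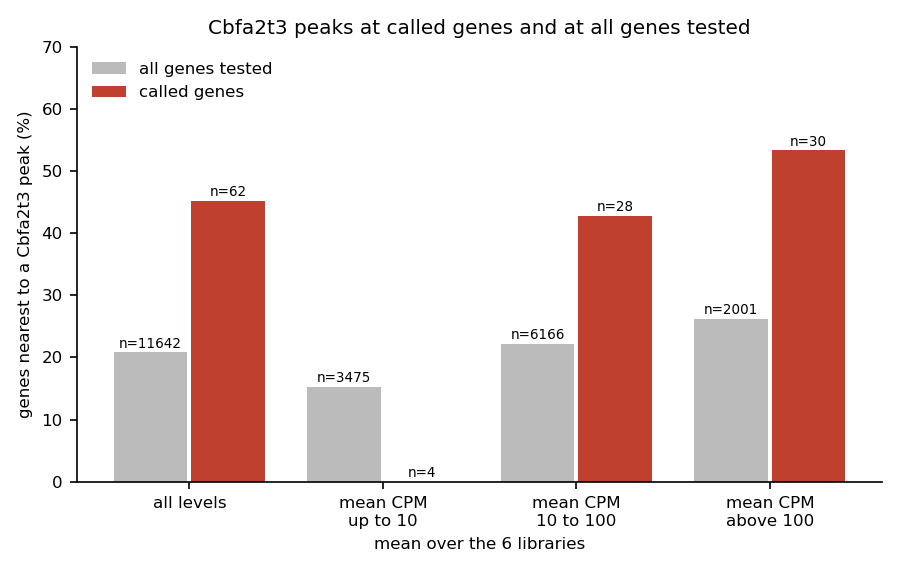
Share of genes that were the nearest gene of at least 1 Cbfa2t3 peak, in percent, for all genes tested (grey) and called genes (red), overall and by the mean CPM over the 6 libraries, with the number of genes above each bar. The share was 45.2% of the 62 called genes and 20.8% of all 11642, and none of the 4 called genes with a mean up to 10 CPM had a peak.

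The called gene with the most peaks and the highest score was *Cbfa2t3* itself, with 10 peaks. Its strongest peak (score 515, higher than 99.9% of the list) lay at -1.65 kb from the start, and the next (score 233) at -2.90 kb. The peak of *E2f2* (score 361) lay in an intron at -2.92 kb from an annotated start and that of *Arid3a* (score 316) in an intron at 13.6 kb. These 3 genes rose, and each of these 3 top peaks overlapped a peak of *Zbtb1* by at least 1 base, as did 24.4% of all Cbfa2t3 peaks. Among genes that fell, the highest scores were those of *Ccr9* (score 199 at -12.6 kb), *Stk17b* (198 at -6.34 kb) and *Jchain* (117 at -6.97 kb). The top peaks of *Ccr9* and *Jchain* did not overlap a Zbtb1 peak, and that of *Stk17b* did. Of the 62 peaks of called genes, 17 overlapped one.

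Since *Cbfa2t3* is recruited by DNA-binding factors, the sequences at the centres of some of the strongest peaks are shown with the motifs of such factors. The 200 bases around the centre were read from the mm10 assembly, with 4 motifs searched on both strands: the Runx core TGTGGT, the E-box forms CAGCTG and CAGATG, and the GATA site AGATAA. The end of an E-box can share letters with a Runx core that follows it. For strong peaks of 2 genes that rose and 2 that fell, the motifs are in capitals:
Cbfa2t3, chr8:122700664-122700863, plus strand: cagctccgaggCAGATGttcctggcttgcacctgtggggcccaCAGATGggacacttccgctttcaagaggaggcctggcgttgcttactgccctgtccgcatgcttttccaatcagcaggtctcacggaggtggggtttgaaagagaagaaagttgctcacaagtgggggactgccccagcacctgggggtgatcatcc
Arid3a, chr10:79940832-79941031, plus strand: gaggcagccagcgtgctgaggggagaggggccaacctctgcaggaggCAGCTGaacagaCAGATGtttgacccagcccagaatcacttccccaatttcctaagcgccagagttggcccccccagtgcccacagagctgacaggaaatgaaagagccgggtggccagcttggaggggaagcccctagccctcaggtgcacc
Ccr9, chr9:123754468-123754667, plus strand: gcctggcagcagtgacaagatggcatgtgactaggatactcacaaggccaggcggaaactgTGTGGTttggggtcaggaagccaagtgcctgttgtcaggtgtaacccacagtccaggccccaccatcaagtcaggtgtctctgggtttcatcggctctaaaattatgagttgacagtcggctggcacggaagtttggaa
Stk17b, chr1:53791458-53791657, plus strand: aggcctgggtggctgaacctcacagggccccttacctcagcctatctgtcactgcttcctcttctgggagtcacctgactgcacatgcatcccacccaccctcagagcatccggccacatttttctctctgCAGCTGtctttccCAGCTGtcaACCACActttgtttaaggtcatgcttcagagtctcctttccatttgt
The *Cbfa2t3* window held 2 CAGATG and no Runx core, and the *Arid3a* window held 1 of each E-box form. The *Ccr9* window held 1 Runx core only, while the *Stk17b* window held 1 Runx core, read on the other strand, and 2 CAGCTG. Over all 6070 peak windows on assembled chromosomes, 43.7% held TGTGGT, 47.4% CAGCTG, 30.5% CAGATG and 6.47% AGATAA. In windows of the same length 5000 bases to either side, the shares were 15.98%, 10.7%, 15.6% and 9.85%. Of the 62 peaks of called genes, 29 held TGTGGT, 25 CAGCTG, 21 CAGATG and 4 AGATAA. A match describes the letters and is no measure of binding.

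The direct contrast with the paralog corepressor asked where the libraries labelled sgCbfa2t3 differed from those labelled sgCbfa2t2. The sgControl values do not enter the difference itself, but the fit of all 15 libraries shares 1 estimate of the spread, and the genes tested were those of the comparison with sgControl. It gave 9 genes (0.0773% of those tested), 4 higher and 5 lower in sgCbfa2t3. *E2f2* had the lowest adjusted p. It was at 60.7, 53.4 and 71.5 CPM in the sgCbfa2t2 libraries, all below its 3 sgCbfa2t3 values (log2 difference 1.27, SE 0.15, adjusted p = 5.9e-08, limma), and it was the gene that kept this call without any 1 library. *Cbfa2t3* itself was at 232, 222 and 266 CPM in sgCbfa2t2 libraries (log2 difference 0.55, SE 0.11, adjusted p = 0.012). *Itga4* was at 378, 352 and 338 CPM there (log2 difference 0.44, SE 0.10, adjusted p = 0.035). *Vegfa*, an angiogenic growth factor, was at 60.7, 63.9 and 70.5 CPM in sgCbfa2t2 and 100.3, 123 and 93.6 CPM in sgCbfa2t3 libraries (log2 difference 0.69, SE 0.15, adjusted p = 0.024), and it was not called against sgControl.

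The genes lower than in sgCbfa2t2 were *H19*, *Gsn*, *Ly6d*, *S100a4* and *Ifitm1*. *H19* was at 33.5, 70.2 and 47.8 CPM in the sgCbfa2t2 libraries (log2 difference -1.40, SE 0.25, adjusted p = 0.0044, limma) and *Ly6d* at 101, 94.5 and 95.6 CPM (log2 difference -0.75, SE 0.15, adjusted p = 0.012). *S100a4* was at 235, 220.5 and 212 CPM (log2 difference -0.55, SE 0.12, adjusted p = 0.024) and *Gsn* at 64.4, 83.5 and 75.4 CPM (log2 difference -0.84, SE 0.18, adjusted p = 0.024). Each lay above all 3 sgCbfa2t3 libraries. *Ifitm1*, an interferon-induced membrane protein, was at 1055, 1119 and 992 CPM in sgCbfa2t2 and 826, 862 and 739.5 CPM in sgCbfa2t3 libraries (log2 difference -0.38, SE 0.08, adjusted p = 0.012). Of the 6 fits without 1 library, *H19* kept the call in 4, *Ifitm1* in 3, *Gsn* in 2, *Cbfa2t3* and *Ly6d* in 1, and *Itga4*, *S100a4* and *Vegfa* in none, and the count was 1 without sgCbfa2t2 replicate 2 and between 2 and 5 without any other 1 library of these groups.

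The direct contrast with sgZbtb1 gave 121 genes (1.04% of those tested), 92 higher and 29 lower in the libraries labelled sgCbfa2t3. Several genes that had fallen against sgControl were lower still in sgZbtb1. *Ly6d* was at 27.9, 36.8 and 23.6 CPM there (log2 difference 0.96, SE 0.15, adjusted p = 9.8e-06, limma), *H19* at 8.94, 5.26 and 10.3 CPM (log2 difference 1.08, SE 0.25, adjusted p = 0.011) and *Ccr9* at 308, 378 and 392 CPM (log2 difference 0.67, SE 0.10, adjusted p = 5.5e-06). *Jchain* was at 217, 318 and 256 CPM (log2 difference 1.40, SE 0.12, adjusted p = 7e-14), and *S100a4* at 136, 90.4 and 91.3 CPM (log2 difference 0.54, SE 0.12, adjusted p = 0.0031). In these 5 genes the sgCbfa2t3 libraries lay between those of sgZbtb1 and sgControl. Of the genes that had risen, *E2f2* was at 53.6, 52.1 and 40.3 CPM in sgZbtb1 (log2 difference 1.61, SE 0.15, adjusted p = 2.9e-12) and *Ccnd2* at 989, 1187 and 1275 CPM (log2 difference 0.46, SE 0.08, adjusted p = 0.00011), both below all sgCbfa2t3 libraries. *Abcb4* was instead lower in sgCbfa2t3 than in sgZbtb1, where it was at 21.8, 28.2 and 17.7 CPM (log2 difference -1.41, SE 0.32, adjusted p = 0.0082).

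Of the 10 genes with the largest differences from sgZbtb1 among those with a mean above 10 CPM in either group and no overlap, 5 in each direction, 9 had not passed against sgControl in the fit reported here. *Tle6*, a member of the Groucho corepressor family, was at 2.79, 5.26 and 7.86 CPM in sgZbtb1 and 23.6, 21.1 and 28.3 CPM in sgCbfa2t3 libraries (log2 difference 2.08, SE 0.39, adjusted p = 0.00054, limma). *Tle2*, of the same family, had 1, 1 and 0 reads in sgZbtb1 and 31, 11 and 33 reads in sgCbfa2t3 libraries (adjusted p = 1.2e-05). Against sgControl, *Tle2* passed with edgeR, with the 2 groups alone and without sgCbfa2t3 replicate 2, and *Tle6* with the 2 groups alone. The transporter *Slc16a5* had 3, 3 and 6 reads in sgZbtb1 and 26, 21 and 18 reads in sgCbfa2t3 libraries. The protease *Pcsk4* had 0, 5 and 5 reads and then 19, 16 and 22 reads, and *Tmem51* had 2, 11 and 1 reads and then 20, 24 and 21 reads. These 3 genes passed, and no fold is given because most levels in sgZbtb1 were near or under the 3-read floor. *Rpph1*, the RNA of ribonuclease P, was lower in sgCbfa2t3 (log2 difference -1.47, SE 0.27, adjusted p = 0.00036). *Fam217b* had 28, 23 and 22 reads in sgZbtb1 and 5 reads in each sgCbfa2t3 library, and *Maged2* had 19, 22 and 20 reads and then 3, 6 and 6 reads. Both passed as lower, and no fold is given so near the floor. Of the 62 genes called against sgControl, 7 also differed from sgCbfa2t2 and 17 from sgZbtb1, and 5 differed from all 3 groups: *Cbfa2t3*, *E2f2*, *Ly6d*, *S100a4* and *H19*. For *S100a4*, *Ly6d* and *Cbfa2t3* the difference from sgCbfa2t2 was kept in at most 1 of the 6 fits without 1 library.

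**Figure D5:**
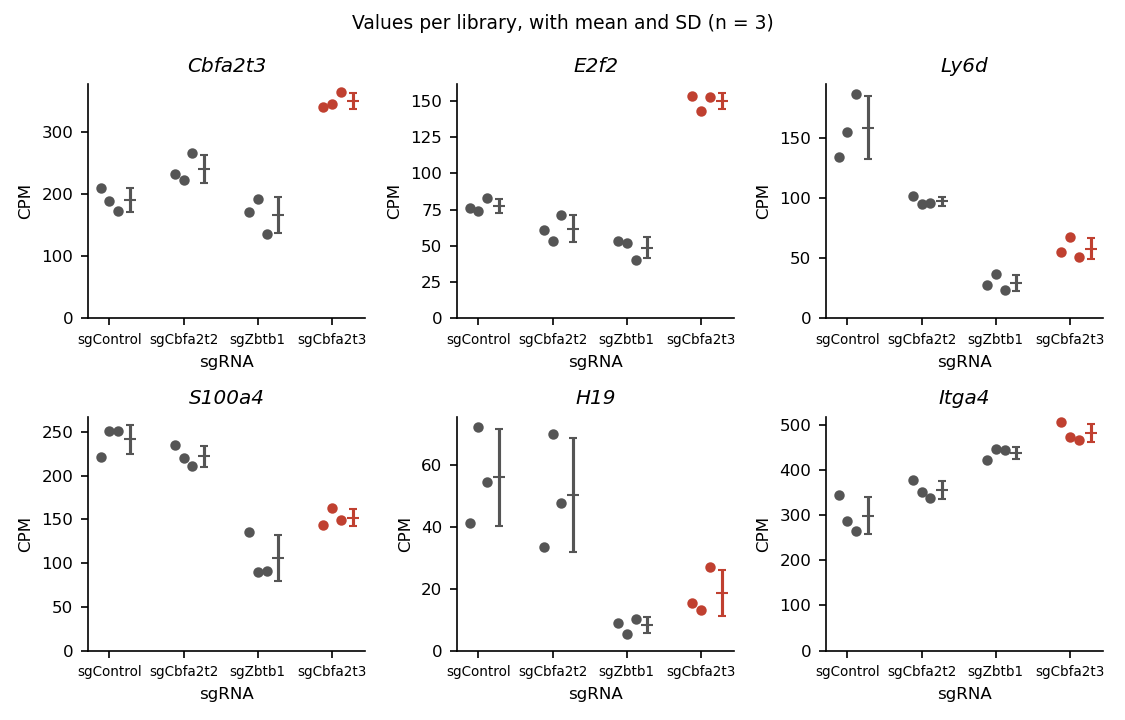
CPM per library (points) with the mean and SD (n = 3, bar to the right of the points) of 6 genes in the sgControl, sgCbfa2t2, sgZbtb1 and sgCbfa2t3 groups, on linear axes from 0. For *Cbfa2t3* and *E2f2* the 3 sgCbfa2t3 libraries (red) are the highest of the 12, and for *Ly6d*, *S100a4* and *H19* they lie below sgControl and sgCbfa2t2 and above the mean of sgZbtb1.

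By the thresholds of the study (means above 10 CPM in either group, a change of more than 1 on the log2 scale in either direction, and p under 0.05 before adjustment), 76 genes (0.653%) differed between sgCbfa2t3 and sgControl, 14 higher and 62 lower. The p was that of limma on the log2 scale, and the count was 42 with a mean above 10 over the 6 libraries and 48 on unlogged values. Of the 76, 20 also had an adjusted p under 0.05. Most of the genes that kept the call without any 1 library were outside these thresholds, since *E2f2*, *Cbfa2t3*, *Itga4*, *Ccnd2*, *Ccr9*, *S100a4* and *Malat1* changed by less than 1 on the log2 scale, at means where the spread was small. An unadjusted p under 0.05 alone was reached by 1248 genes (10.7%).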

How the data were processed

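QuantSeq 3′ mRNA libraries (3 per group) and ChIP-seq peaks of LPs were used. Per the study's methods and the labels, the authors trimmed QuantSeq reads with fastp, mapped them to mm10 with STAR and scaled counts per gene to a common total (CPM). The deposited values are named TPM, but they were not divided by gene length, so they are CPM, and whole reads were recovered (99.97% to 99.98% of values within 0.05 reads). The peaks were mapped with Bowtie 1.1.1 and called with HOMER against input, and the deposited peak score is that of 1 list of reproducible peaks per factor. The distance to the start site is as deposited.

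All 15 QuantSeq libraries were fitted together with limma 3.58.1 (trend) on log2(CPM + 1) for genes with a mean above 1 over the 6 sgControl and sgCbfa2t3 libraries, with Benjamini-Hochberg adjustment over all 11642 genes. A fold change on this scale understates that of low genes. The pseudocount, filter, scaling, samples and replicate block were varied, and edgeR 4.0.16 and DESeq2 1.42.0 were run on the recovered reads. Exact permutation tests were two-sided. The fit was tested on simulated counts for sgCbfa2t3 against sgControl with 200 of 11642 genes changed. The 200 were drawn from genes with a mean above 10 CPM over the 15 libraries, so recovery in lower genes was not simulated. Of these changes, 82% of those of 1 and 98% of those of 2 on the log2 scale were recovered, and 6 unchanged genes were called. One row without a gene name, with 1 read per library, was left out. Floors cover counting error only. Named genes were those that the study names, the called genes with the largest changes (15 up, 20 down), the 5 most abundant called genes, list members called or with the lowest p (up to 4), the 8 with the highest peak scores, and up to 5 genes per direction of each direct contrast. The other called genes were named after their values were seen. The members and gene lists were chosen with earlier results of these data known. Sequences and motif counts come from the mm10 assembly. Some genes and sequences that these rules select are not reported here.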

Additional observations from a re-analysis of the deposited data

How the results depend on the processing

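No called gene changed direction under any alternative run. The count of 62 genes called against sgControl was 26 (9 higher) with no filter on low values, where 16278 genes were tested, and 26 to 56 when 1 library was left out. It was 51 with a pseudocount of 0.1, 61 with a mean above 10, 62 with median-of-ratios scaling, 63 with the 2 groups alone, 59 with edgeR and 54 with DESeq2. On unlogged values, 1 gene had an adjusted p under 0.05, and it was not among the 62. The share of higher genes was 25.8% in the reported fit, 32.2% with edgeR and 38.9% with DESeq2. DESeq2 called 34 of the 62 and gave no adjusted p for 23 of them. The 76 genes by the thresholds of the study became 42 with a mean above 10 over the 6 libraries, 48 on unlogged values, and 80 to 99 without 1 library. The 9 genes that differed from sgCbfa2t2 became 1 with no filter, and 1 to 5 without 1 library. The 121 genes that differed from sgZbtb1 ranged from 83 to 153. The cause of these shifts was not tested. At this depth, 3 reads limit levels to about 1.61 to 1.76 CPM.

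The replicate numbers did not pair the samples by the criterion used (a correlation over 0.1), since same-numbered sgControl and sgCbfa2t3 libraries had correlations of deviations of 0.0341, 0.0078 and 0.0378. As a hint from the data, every library correlated best with its own number. With the replicate block, 91 genes were called against sgControl (26 higher), the 62 among them, 13 against sgCbfa2t2 and 153 against sgZbtb1, and 76 genes passed the thresholds of the study. The block also called Bcl2, Id2, Ifitm1 and Tle2, which are named in the text and were not called against sgControl in the reported fit. Each of these genes also passed against sgControl in some other alternative.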
